A study of Homo sapiens with 5 samples.

Results

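Accessible chromatin around early B progenitor genes was examined by DNase-seq in 5 human B-lineage cell lines. The genes were RAG1, RAG2, DNTT, IGLL1, SOX4 and ERG, and the members were the listed peaks that overlapped 5 windows of the hg18 genome around them. The windows were chromosome 11 from 36.50 to 36.62 Mb (RAG1 and RAG2), chromosome 10 from 98.03 to 98.10 Mb (DNTT), chromosome 22 from 22.23 to 22.27 Mb (IGLL1), chromosome 6 from 21.60 to 21.80 Mb (SOX4) and chromosome 21 from 38.65 to 39.00 Mb (ERG). Of 109231 peaks on chromosomes 1 to 22 and X, 16 lay in these windows, which together span 780 kb. Joining peaks that shared at least 1 bp gave 11 merged regions in the windows, out of 59212 in all.

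DNase I digests open chromatin more readily than closed chromatin, and sequencing of the short fragments maps the open sites as peaks. L1236 (DNase I at 6 U/ml), L428 (6 U/ml) and L591 (12 U/ml) are Hodgkin lymphoma lines. The non-Hodgkin group held Reh (6 U/ml), a pro-B lymphoblastic leukaemia line, and Namalwa (12 U/ml), a Burkitt lymphoma line, and all 5 lines were at passage 7. Each line gave 1 library and 1 peak list, so a line has no error of its own, and the replicates of a group are its lines. The lists held 23288 to 27925 peaks, except for Namalwa with 5760, of which 98.4% overlapped a Reh peak, so these 2 lists are not shown to be independent. The depth behind the lists is unknown. An hg18 gene annotation was not used here, so a peak is placed in a window and not in an exon, intron or promoter. For the same reason the labelled cell types were not checked against other marker genes.

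Early B progenitors assemble their immunoglobulin genes by V(D)J recombination, and they switch the genes for it off as they mature. RAG1 and RAG2 form the recombinase that cuts the gene segments, and DNTT, terminal deoxynucleotidyl transferase, adds untemplated nucleotides at the joints. IGLL1, also known as lambda5, is part of the surrogate light chain that pairs with the newly made heavy chain. SOX4 and ERG are transcription factors that act in early B cell development and also in other cell types.

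The 250 bases before the RefSeq starts of SOX4, IGLL1 and DNTT are shown because the windows of these genes held 14 of the 16 peaks. Capitals mark matches on either strand to the E-box CAGNTG, a site type bound by E proteins such as TCF3, or to CCCNNGGG, the core of the site bound by the B lineage factor EBF1. The sequences come from RefSeq, build GRCh38.p14, and were not placed against the hg18 peaks. They lie at chr6:21593501-21593750 (plus strand), chr22:23580291-23580540 (minus strand) and chr10:96304184-96304433 (plus strand) of that build, and these positions cannot be compared with hg18 positions.
SOX4: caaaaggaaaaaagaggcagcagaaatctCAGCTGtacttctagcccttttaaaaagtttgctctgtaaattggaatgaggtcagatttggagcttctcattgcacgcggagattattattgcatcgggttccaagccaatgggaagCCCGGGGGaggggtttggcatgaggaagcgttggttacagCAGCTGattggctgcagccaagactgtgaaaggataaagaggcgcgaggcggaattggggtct
IGLL1: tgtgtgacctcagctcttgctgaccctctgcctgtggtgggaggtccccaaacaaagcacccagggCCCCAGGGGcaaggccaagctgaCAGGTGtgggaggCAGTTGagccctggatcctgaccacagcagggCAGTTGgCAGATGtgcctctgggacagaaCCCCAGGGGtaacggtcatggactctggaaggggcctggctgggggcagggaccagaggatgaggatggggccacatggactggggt
DNTT: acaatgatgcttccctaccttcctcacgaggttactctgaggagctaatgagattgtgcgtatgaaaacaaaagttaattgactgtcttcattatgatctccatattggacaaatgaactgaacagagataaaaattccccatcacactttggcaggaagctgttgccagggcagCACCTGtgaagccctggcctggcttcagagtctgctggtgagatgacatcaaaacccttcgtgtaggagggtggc
The IGLL1 sequence held 4 E-boxes and 4 matches to CCCNNGGG, which overlap in pairs and so lie at 2 places. The SOX4 sequence held 2 E-boxes and 1 match to CCCNNGGG, and the DNTT sequence held 1 E-box and no match to CCCNNGGG. Among 35116 RefSeq sequences of the same length, 42.5% held the E-box and 17.1% held CCCNNGGG. Base composition also set the genes apart. The IGLL1 sequence had a GC content of 63.6% but 1 CpG, against a median of 11 CpG and 58.0% GC over all sequences, whereas SOX4 had 8 CpG at 48.8% GC and DNTT 3 CpG at 46.4%. The RAG1 sequence, at chr11:36510103-36510352 of that build, had 25 CpG. That of the neighbouring gene RAG2, at chr11:36598237-36598486, had 0. By these positions the sequences are not next to each other, and whether that of RAG1 lies in the hg18 window was not tested. These matches and compositions describe the reference and were measured in no cell line.

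The windows divided into 2 with peaks in Reh alone (RAG1 with RAG2, and IGLL1), 1 with peaks in the Hodgkin lines alone (SOX4), 1 with peaks of both groups at separate places (DNTT) and 1 that was nearly empty (ERG). At RAG1 with RAG2 this depends on the window bound, as Reh, L591, L428 and L1236 each had a peak just before it. Reh had 5 peaks over the 5 windows, L428 had 5, L591 had 4, L1236 had 2 and Namalwa had 0. Reh thus had 6.41 peaks per Mb of window, against 9.24 per Mb over the stretch of the genome covered by the lists. L428 had 6.41 against 7.71, L591 5.13 against 8.81 and L1236 2.56 against 8.49, so no line had more peaks per Mb in the windows than in its list as a whole. Namalwa had 1.91 peaks per Mb over the whole stretch.

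**Figure D1:**
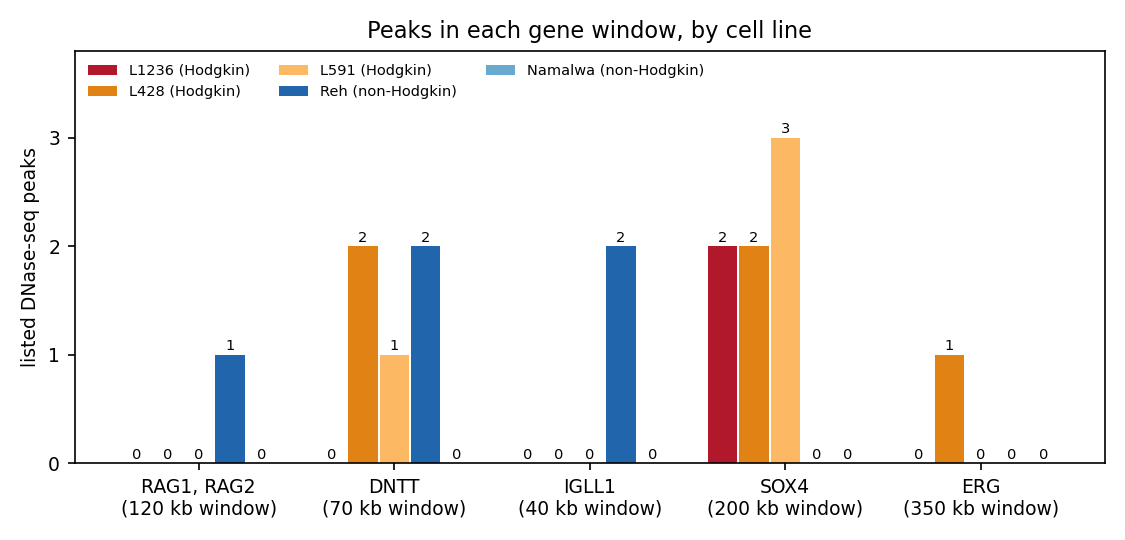
Number of listed DNase-seq peaks (vertical axis) in each of the 5 gene windows (horizontal axis, with window length), with 1 bar per cell line and its count above it. Reh bars stand alone at RAG1 with RAG2 and at IGLL1, the 3 Hodgkin lines stand alone at SOX4, and Namalwa is at 0 in every window.

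The score of a peak in the deposited lists is its area, which has no scale common to the lines, so each peak was ranked within its own list. A score percentile of 70 means that the peak ranks above about 70% of its list, and the middle of every list is 50 by construction. The 16 peaks ranked from 4.0 to 75.4 with a median of 21.15, and 11 of them lay below 50. None of the 16 was among the 5760 highest-scoring peaks of its list, a number equal to the length of the Namalwa list. The lists of L1236, L428, L591 and Reh held 25646, 23288, 26612 and 27925 peaks, so this cut keeps the smaller part of each. In Reh the 5 peaks ranked from 4.0 to 70.9 with a median of 45.0. The L428 peaks ranked lowest, from 4.3 to 18.9 with a median of 15.9, and 0 of its 5 peaks lay above 50.

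**Figure D2:**
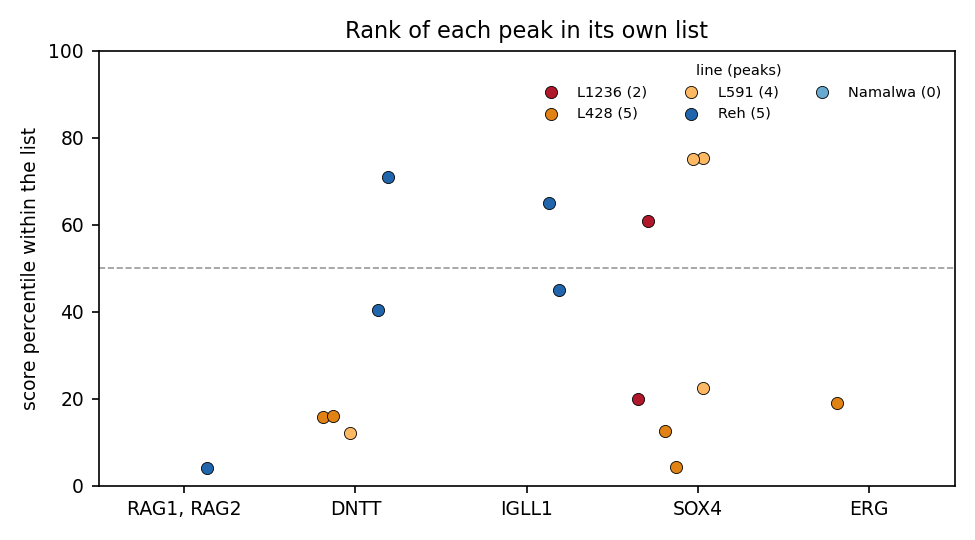
Score percentile of each of the 16 peaks within its own list (vertical axis, 0 to 100) by gene window (horizontal axis), with colours for the lines and a dashed line at 50. Points are set slightly apart sideways so that near-equal values show. The highest points are 2 L591 peaks at SOX4 (75.4 and 75.0) and a Reh peak at DNTT (70.9).

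In the window of the recombinase genes RAG1 and RAG2, Reh had 1 peak and each of the other 4 lines had 0. The Reh peak lay at chr11:36572931-36573090, was 160 bp wide and had a score of 816, at percentile 4.0 of the Reh list, where the lowest score of all is 632. A single low-ranking peak was therefore the only listed accessible site in the 120 kb window. Of tiles of 120 kb along the genome, 4.02% likewise held Reh peaks but none of the Hodgkin lines. Scaled to list length, the window had 0.358 peaks per 10000 listed peaks in Reh and 0 in Namalwa and in all 3 Hodgkin lines. The group difference, non-Hodgkin minus Hodgkin, was 0.179 peaks per 10000, below the SD of 0.253 in the non-Hodgkin lines (n = 2). A two-sided exact permutation gave p = 0.4 over 10 splits, where 0.1 is the smallest possible p.

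Just outside this window, 4 of the 5 lines had a peak. Within 50 kb before its start, Reh had a peak at chr11:36488161-36488520 (percentile 69.9), L591 at chr11:36488071-36488540 (49.6), L428 at chr11:36487841-36488000 (2.6) and L1236 at chr11:36487321-36487530 (24.9). L1236 had a further peak at chr11:36478531-36478720 (19.6), 21.3 kb before the window. Namalwa had 0 there, and its nearest peaks were 232 kb before and 7040 kb after the window. The Reh and L591 peaks overlapped, while the L428 peak and the nearer L1236 peak lay next to them without touching them. These 4 neighbouring peaks lie 11.5 to 12.5 kb before the window. In the RefSeq gene order TRAF6, a signalling adaptor gene, precedes RAG1. Whether these peaks lie at a start of RAG1 or belong to TRAF6 was not tested, since no hg18 annotation was used. The window is therefore not shown to hold every start of RAG1. With windows widened by 50 kb, so that L1236 had 2 peaks, L428 1, L591 1, Reh 2 and Namalwa 0, the difference at RAG1 with RAG2 turned to -0.170 peaks per 10000, higher in the Hodgkin lines (two-sided exact permutation p = 0.7).

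At IGLL1, Reh had 2 peaks and each of the other 4 lines had 0. The first lay at chr22:22252391-22252920 with a score of 2752 (percentile 64.9) and was 530 bp wide. The other lay 470 bp further on at chr22:22253391-22253680 with a score of 1696 (percentile 45.0). This pair made IGLL1 the window with the closest spacing of Reh peaks, in the middle of the Reh ranks. The nearest peaks outside the window were 96.9 kb before and 98.6 kb after it in Reh, 70.9 and 171 kb in L1236, 375 and 119 kb in L428, 242 and 119 kb in L591 and 350 and 154 kb in Namalwa. The Hodgkin lines thus had no listed peak in the 40 kb window or within 70.9 kb of either side. Of 40 kb tiles along the genome, 3.83% held at least 1 Reh peak without any of the Hodgkin lines, and 1.22% held 2 or more. The scaled count was 0.716 per 10000 in Reh and 0 in the other 4 lines (difference 0.358, two-sided exact permutation p = 0.4), and without Reh the difference is 0. With both other lines at 6 U/ml, L1236 and L428, at 0 peaks, the Reh peaks were found at a DNase I concentration shared with Hodgkin lines. At 12 U/ml both L591 and Namalwa had 0.

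At DNTT both groups had peaks, at different places. Reh had 2 peaks, at chr10:98037171-98037450 (score 1552, percentile 40.5) and chr10:98056301-98056590 (score 3296, percentile 70.9). By score per bp the second stood higher still, at percentile 90.0 of the Reh list. L428 had 2 peaks, at chr10:98075771-98075950 (percentile 15.9) and chr10:98091451-98091610 (percentile 16.1), and L591 had 1 at chr10:98091461-98091720 (percentile 12.2). L1236 and Namalwa had 0. The last L428 peak and the L591 peak shared 150 bp, whereas the nearest peaks of Reh and L428 were 19.2 kb apart. The Hodgkin peaks ranked in the lower part of their lists and the Reh peaks did not overlap them. The mean was 0.412 ± 0.431 (SD, n = 3) peaks per 10000 in the Hodgkin lines and 0.358 ± 0.506 (SD, n = 2) in the other lines. Tiles of 70 kb in which Reh and at least 1 Hodgkin line both had a peak made up 20.8% of the genome's tiles. How often the peaks of such tiles lay at separate places was not counted. The group difference of -0.053 was smaller in size than the SD of either group (two-sided exact permutation p = 1.0).

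The stretch before the DNTT window was richer in Reh peaks than the window itself. Reh had 5 peaks in the 50 kb before it, at percentiles 69.5, 75.0, 10.9, 48.7 and 70.2. The nearest ended 0.630 kb outside the window, at chr10:98028861-98029370, and so narrowly missed being a member. L1236 had 1 peak there, at chr10:98021241-98021460 (percentile 17.4), inside the Reh peak at chr10:98021091-98021640. L428, L591 and Namalwa had none there, and L591 had 1 peak 25.0 kb after the window. BLNK, a gene for an adaptor of B cell receptor signalling, precedes DNTT in the RefSeq gene order. Whether these peaks belong to BLNK or to DNTT was not tested. With 50 kb added on both sides the difference turned to 0.587 peaks per 10000, higher in the non-Hodgkin lines (two-sided exact permutation p = 0.7).

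**Figure D3:**
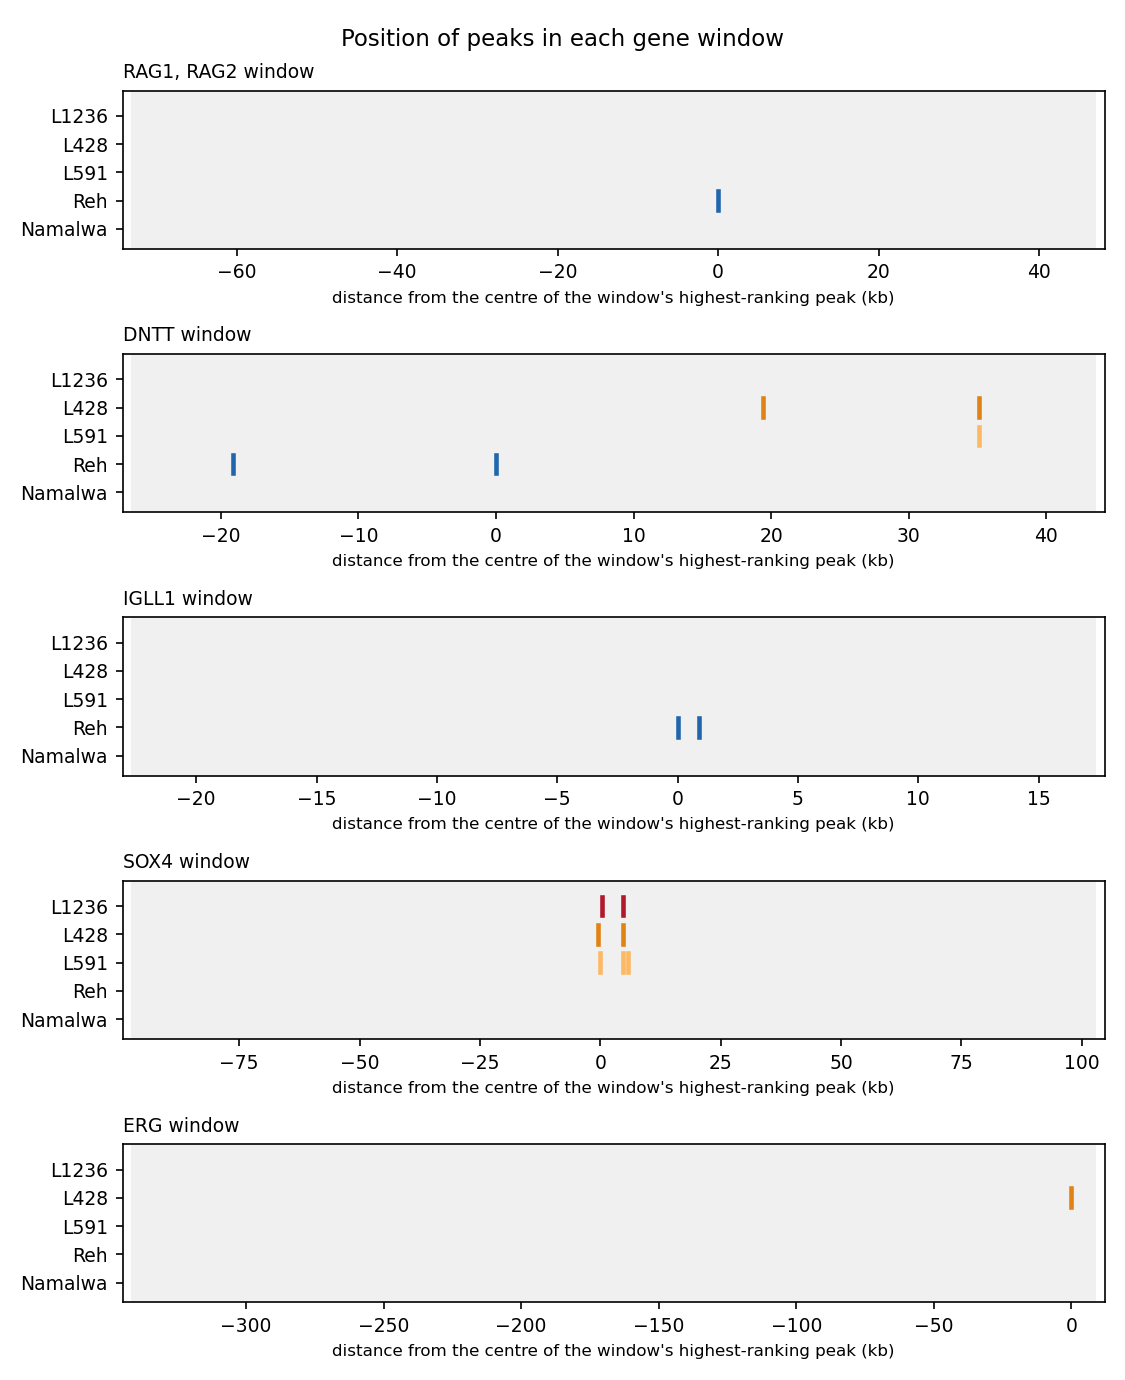
Position of every peak in the 5 windows, with 1 panel per window and 1 row per cell line. The horizontal axis is the distance in kb from the centre of the highest-ranking peak of that window, and the grey area is the window. Reh and Hodgkin peaks occupy separate parts of the DNTT window, the SOX4 peaks of the 3 Hodgkin lines line up, and the only ERG peak lies near the end of its window.

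At SOX4 the order of the groups was the opposite of that at IGLL1. L1236 had 2 peaks, L428 had 2 and L591 had 3, while Reh and Namalwa had 0, so the groups did not overlap. Of the Namalwa peaks, 98.4% overlapped a Reh peak, so the counts of 0 in Reh and Namalwa are not shown to be independent. Scaled to list length, the counts were 0.780 per 10000 in L1236, 0.859 in L428 and 1.127 in L591. The Hodgkin mean was 0.922 ± 0.182 (SD, n = 3) against 0 in both other lines. A two-sided exact permutation test gave p = 0.1, which no split of 5 lines can go below. Adjusted by Benjamini-Hochberg over the window and 15096 tiles of 200 kb, it was 0.944. Among those tiles, 11.1% had a higher scaled count in every Hodgkin line than in both other lines. A peak in each of L1236, L428 and L591 with none in Reh or Namalwa was found in 4.57% of tiles. Within the lines digested at 6 U/ml, L1236 and L428 had 2 peaks each and Reh had 0. At 12 U/ml, L591 had 3 and Namalwa had 0.

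The SOX4 peaks of the 3 Hodgkin lines fell at 2 shared places. The clearer of them was the merged region chr6:21701591-21702200, where the L591 peak had a score of 8248 (percentile 75.0), the L1236 peak 7600 (60.8) and the L428 peak 1712 (12.5). All 3 peaks shared the 190 bp chr6:21701811-21702000. The region thus ranked in the upper part of 2 lists and low in that of L428. By score per bp the order was the same, with percentiles of 76.4 in L591, 75.5 in L1236 and 4.7 in L428. The other place was the merged region chr6:21696661-21697740, which lies 3.85 kb before it. There the L591 peak was 1020 bp wide (score 8360, percentile 75.4), and the narrower peaks of L428 (percentile 4.3) and L1236 (19.9) lay 590 bp apart, joined only by the L591 peak. By width this L591 peak was at percentile 92.9 of its list and by score per bp at 29.1, where the L428 peak was at 15.6 and the L1236 peak at 0.7. With each peak set to 200 bp around its centre, or without L591, 1 region in place of 2 had a peak in every Hodgkin line and no other line. Another region, chr6:21702831-21703160, had a peak in L591 alone (percentile 22.4).

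Reh and Namalwa lacked peaks well beyond the SOX4 window. The nearest Reh peaks were 1090 kb before and 2590 kb after it, and those of Namalwa 1090 and 2710 kb. In the Hodgkin lines the nearest peaks outside the window were also distant, at 469 and 939 kb in L1236, 228 and 377 kb in L428 and 52.9 and 333 kb in L591. All 7 SOX4 peaks therefore lay within a short stretch of a region that was otherwise empty in the lists, and widening the window by 50 kb added no peak in any line. Of all 200 kb tiles, 57.2% had no Reh peak and 80.7% had no Namalwa peak, so an absence in each list was common. The share of tiles with neither was not counted. As 98.4% of Namalwa peaks overlapped a Reh peak, few tiles without a Reh peak can hold a Namalwa peak. Copy number and read mapping over this stretch were not tested in any line, so the counts of 0 in Reh and Namalwa say only that no peak is listed there.

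**Figure D4:**
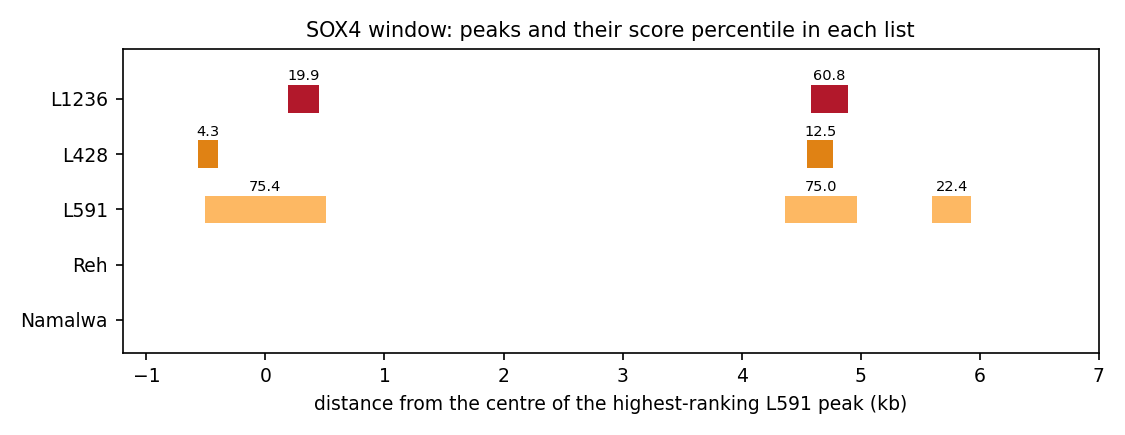
Peaks of the SOX4 window drawn to scale, with 1 row per cell line and the score percentile of each peak above it. The horizontal axis is the distance in kb from the centre of the highest-ranking L591 peak. The peaks of L1236 (60.8), L428 (12.5) and L591 (75.0) on the right overlap one another, while on the left the L428 and L1236 peaks lie apart and only the L591 peak spans both, and the Reh and Namalwa rows are empty.

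ERG, an ETS family factor of blood stem cells and early progenitors, had the longest window and the fewest peaks for its length. L428 had 1 peak, at chr21:38991211-38991480, with a score of 1936 (percentile 18.9), and each of the other 4 lines, Reh included, had 0. The peak lay 8.52 kb before the end of the window, on the side of the neighbouring gene ETS2 in the RefSeq order, and the remaining 341 kb before it held no peak of any line. By score per bp the peak was at percentile 0.3 of the L428 list. Tiles of 350 kb with at most 1 peak over all 5 lines made up 32.5% of the genome's tiles, and 46.9% had no Reh peak. The nearest Reh peaks were 655 kb before and 125 kb after the window. The difference of -0.143 peaks per 10000 was smaller in size than the SD of 0.248 in the Hodgkin lines (n = 3, two-sided exact permutation p = 1.0) and is 0 without L428.

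Region by region, 5 of the 11 merged regions were found in Reh alone, where 21.5% of all merged regions are. These are 1 region at RAG1 with RAG2, 2 at DNTT and 2 at IGLL1, and all 5 of the Reh regions in the windows were private to Reh, where 48.8% of all Reh regions are. A further 2 regions, both at SOX4, had a peak in every Hodgkin line and no other line, against 4.33% of all merged regions. In chr6:21696661-21697740 the L428 and L1236 peaks were joined only by the L591 peak, and with peaks set to 200 bp 1 such region was left. L428 and L591 alone shared 1 region, at DNTT (5.74% of all regions are of this kind). L428 by itself had 2, at DNTT and ERG (9.02%), and L591 by itself had 1, at SOX4 (12.5%). No region was found in all 5 lines, a class that holds 5.12% of all merged regions, and none paired Reh with a Hodgkin line. Of all 26054 Reh regions, 13342 likewise had no peak of a Hodgkin line. With 11 regions at 5 loci, regions of a window share their locus and are not replicates, so these shares were not tested. With only the upper 50% of each list, 2 regions in Reh alone and 0 in every Hodgkin line and no other line were left.

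**Figure D5:**
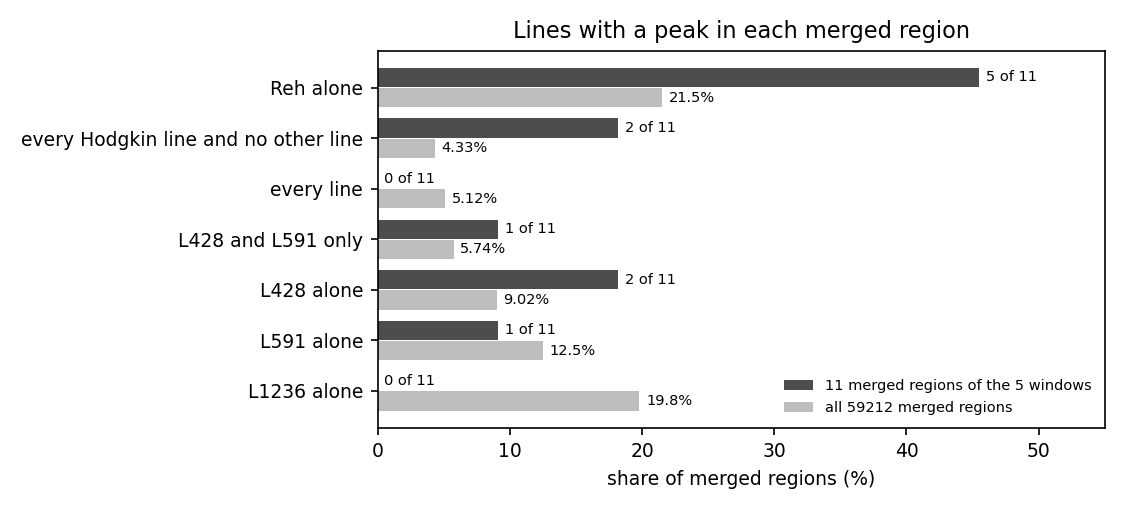
Share of merged regions (horizontal axis, percent) by the lines that had a peak in them (vertical axis). Dark bars give the 11 regions of the 5 windows with their counts, and light bars give all 59212 merged regions with their shares. Regions in Reh alone make up 5 of 11 against 21.5%, and regions in every Hodgkin line and no other line 2 of 11 against 4.33%. The SOX4 region chr6:21696661-21697740, counted among the latter, is joined only by the L591 peak.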

How the data were processed

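DNase-seq peaks were taken from 1 deposited list for each of 5 cell lines. Per the submitters' processing notes, Bowtie 1.00 and the build hg18 were used. Per the file headers, the reads were extended to 146 bp and binned at 10 bp. How peaks were called, at what threshold and from how many reads is not given in the sources used here. The score deposited by the authors is the area of each peak, without a stated scaling, and served only as a rank within a list. The L1236 list lacks the mark qcTrimmed that the other lists carry. Positions are 1-based in hg18.

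A peak counted in a window when it overlapped it by at least 1 bp. Counts were scaled to 10000 listed peaks and compared between 3 Hodgkin and 2 non-Hodgkin lines by two-sided exact permutation over 10 splits, where the smallest p is 0.1. Each p is the share of these splits whose absolute group difference is at least the observed one. With 1 library for each line, these p-values hold no error within a line. Benjamini-Hochberg adjustment ran over all genome tiles of the window's length, laid from the chromosome start to the last listed peak. The genes, windows and other lists were chosen with earlier results of these data known. In each window all merged regions are named where there are 6 or fewer, which held for each of the 5. Other genes of early B development were not placed, since no hg18 annotation was used here. Motifs were searched in RefSeq GRCh38.p14 sequences. Merging and presence classes were tested on 68319 simulated regions, where 100.0% of the planted counts were found. These regions lay far apart and the peaks of each overlapped, so this checked the counting only. Close neighbours and peaks joined only by another peak, as at SOX4, were not simulated. Python 3.11.15, numpy 2.4.6 and pandas 2.3.3 were used. Alternatives covered the overlap rule, scaling, list length, joining, window bounds, the rank measure and each line left out in turn.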

Additional observations from a re-analysis of the deposited data

How the results depend on the processing

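Few peaks carry these results, and the depth behind them is unknown. No difference between the groups passed 0.05 under any alternative, a level that 5 lines cannot reach. SOX4 kept its direction under every alternative except lists of equal length (the 5760 highest-scoring peaks of each), where no window held a peak. There all 5 differences, the counts in Reh alone and in every Hodgkin line and no other line, and the count of all regions were 0. With the upper 50% of each list, the difference was 0 at RAG1 with RAG2 and at ERG and 0.358 at DNTT, where it changed sign, and 4 regions were left, of which 2 were in Reh alone, 2 in Reh and no Hodgkin line, and 0 in every Hodgkin line and no other line. With windows widened by 50 kb the difference changed sign at RAG1 with RAG2 (-0.17) and at DNTT (0.587). The DNTT difference of -0.053 was 0 peaks without scaling to list length and 6.312 bp per Mb by covered length.

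Leaving out a line in turn, the difference ranged from -0.412 to 0.305 at DNTT, from 0 to 0.358 at RAG1 with RAG2, from 0 to 0.716 at IGLL1, from -0.993 to -0.819 at SOX4 and from -0.215 to 0 at ERG. The lowest values at RAG1 with RAG2 and at IGLL1 are those without Reh, the value of 0 at ERG is that without L428, and DNTT was positive without L428 (0.170) and without Namalwa (0.305). Regions in every Hodgkin line and no other line then ranged from 1 (without L591) to 3 (without L1236), and all regions from 6 (without Reh) to 11. With peaks set to 200 bp, regions in every Hodgkin line and no other line numbered 1. The median percentile of the Reh peaks was 4.0, 55.7 and 54.9 by score, 27.2, 65.9 and 39.9 by score per bp, and 4.0, 42.8 and 61.4 by width, at RAG1 with RAG2, DNTT and IGLL1 in that order. Lines were not paired, because they are different cell lines and the labels give no pairing between the groups. The permutation also took no account of the DNase I concentration, which both groups share. Values within each concentration stand beside the results for SOX4 and IGLL1.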
